A study of Saccharomyces cerevisiae with 16 samples.

Results

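The nuclear RNA polymerases of budding yeast, Pol I, Pol II and Pol III, are built from 31 subunit genes, taken here by gene symbol. All 31 were on the array, each as 2 spots, among 4073 genes measured in all. They comprised 7 genes specific to Pol I, 7 specific to Pol II, 10 specific to Pol III, 2 shared by Pol I and Pol III, and 5 common to all 3 enzymes.

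The study used 16 two-colour arrays of polyadenylated RNA from Saccharomyces cerevisiae of the W303 background. One strain was wild type and the other carried esa1-L254P::NatRMX4, a point allele of ESA1, which encodes the catalytic subunit of the histone acetyltransferase complex NuA4. Cells labelled G1 were held in the mating pheromone alpha factor for 1 h and then kept with or without 0.05% MMS (methyl methanesulfonate, which methylates DNA bases) for 1 h; cells labelled S were held for 2 h, washed and released for 1 h into medium with or without MMS. Each of 8 comparisons had 2 arrays, with the test RNA in Cy5 in replicate 1 and in Cy3 in replicate 2. In 4 comparisons MMS-treated cells were set against untreated cells of the same strain and phase, and in the other 4 esa1-L254P was set against wild type in each phase and treatment. The synchronised wild type and the mutant went through the same arrest, so every group had seen alpha factor.

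Pol I transcribes the precursor of the large ribosomal RNAs, Pol II the messenger RNAs, and Pol III the transfer RNAs and other small RNAs. The enzymes share a common architecture: the subunits around the active site are related between them, some polypeptides are the same in more than 1 enzyme, and each enzyme has parts of its own that act in initiation, elongation or termination. In yeast the genes of Pol I and Pol III are known to be turned down together with the genes of ribosome production when growth slows or cells are stressed.

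Values below are log2 ratios, averaged over both spots of a gene and turned so that positive means higher with MMS or higher in esa1-L254P. The sign is likely rather than stated: the labels give the dyes but not the order of the ratio, which was taken as Cy5 over Cy3. With that sign MAG1, the glycosylase gene that methylating agents induce, rose in all 4 MMS comparisons (0.86 to 1.09), and the checkpoint targets RNR3 and HUG1 rose in S (1.22 and 1.03 in wild type, 0.99 and 0.68 in esa1-L254P). In wild-type G1, RNR3 fell (-0.23); RNR3 in esa1-L254P G1 and HUG1 in both G1 comparisons did not pass. ESA1 itself was higher in untreated esa1-L254P G1 cells (0.68), but a point allele gives no check of the strain labels. The 2 arrays of a comparison, before turning, correlated negatively over genes in 6 comparisons, as exchanged dyes require. The correlation was -0.716 to -0.462 in the MMS comparisons and weaker in the untreated strain comparisons (-0.163 for G1, -0.290 for S). It was positive in the strain comparisons under MMS (0.215 for G1, 0.612 for S), in which the dye thus outweighed the strain. Results that use those comparisons are therefore also given without them. The sources used here do not say whether arrays shared an RNA preparation, so p-values measure the spread between these arrays, which may be technical. A ratio of a bulk culture cannot tell fewer transcripts per cell from a smaller share of cells that hold them.

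**Figure D1:**
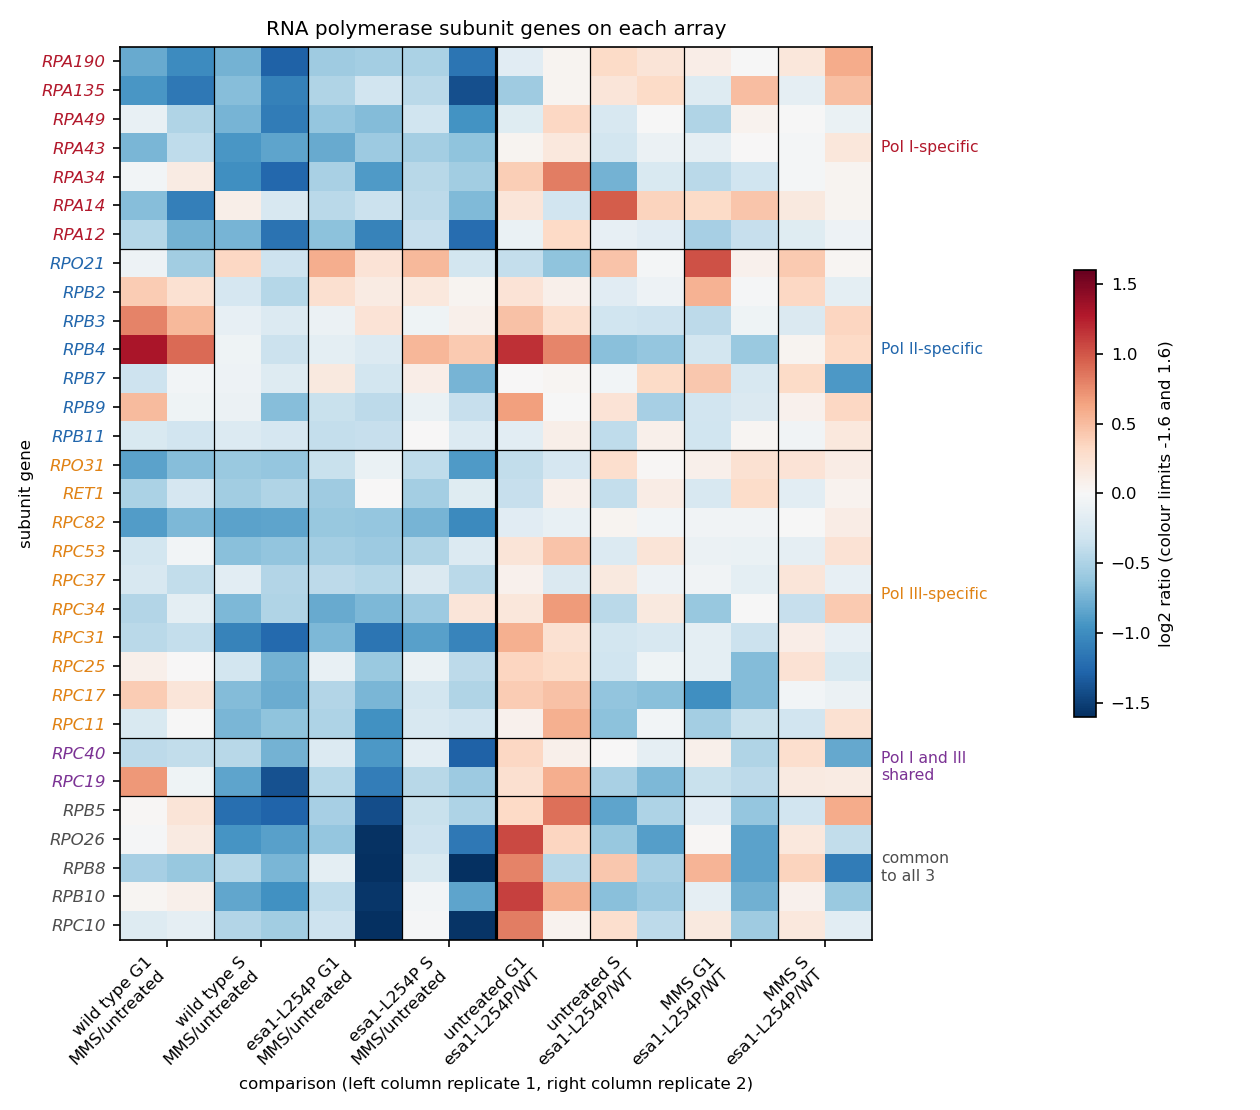
Log2 ratio of each of the 31 subunit genes (rows, grouped by polymerase) on each of the 16 arrays (columns, 2 per comparison). Colours stop at -1.6 and 1.6, and 3 values lie beyond the lower limit, down to -2.21 for RPB8. In the 4 MMS comparisons on the left the Pol I rows are mostly blue, the Pol II rows mixed and pale, and the Pol III rows mostly blue.

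The first question was how the subunit genes responded to MMS, taking the 4 MMS comparisons together. Transcripts of the subunits specific to Pol I or Pol III fell, as did those of the shared and common subunits. Those of the subunits specific to Pol II on the whole did not. In the mean over the 8 MMS arrays, all 7 Pol I genes, all 10 Pol III genes, both genes shared by these enzymes and all 5 common genes fell, while of the 7 Pol II genes RPB4 rose and RPB11 fell. Thus 26 of 31 genes passed the test, 25 of them lower (80.6%) and 1 higher (3.23%), where 55.3% of all genes tested passed, 27.3% lower and 28.0% higher (limma, Benjamini-Hochberg adjusted p under 0.05 over all 4073 genes). The median of the mean response was -0.68 for Pol I, -0.44 for Pol III, -0.55 for the shared pair, -0.63 for the common genes and 0.05 for Pol II, against -0.01 over all genes. With any 1 of the 8 arrays left out between 23 and 26 genes passed. The calls lost in this way were those of RPB8 in 6 of the 8 omissions (all but replicate 1 of each esa1-L254P comparison), RPC25 in 4 (replicate 2 of each comparison) and RPC10 in 4 (wild-type G1 replicate 1 and replicate 2 of the others), with adjusted p up to 0.122 for RPB8, 0.0898 for RPC25 and 0.0822 for RPC10.

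Single arrays gave the same order of Pol I and Pol III against Pol II. The median of the 7 Pol I genes lay between -1.12 and -0.43 on the 8 MMS arrays, that of the 10 Pol III genes between -0.68 and -0.21, and that of the 7 Pol II genes between -0.33 and 0.41. On each array the Pol I median was below the Pol II median, by 0.35 to 1.10, and so was the Pol III median, by 0.18 to 0.77. Pol I was below Pol III on 6 of 8 arrays. Of all 31 genes, 14 were below 0 on all 8 MMS arrays, which 11.9% of all genes were: 5 of 7 for Pol I, 6 of 10 for Pol III, 1 of the shared pair, 2 of the 5 common genes and none of 7 for Pol II.

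**Figure D2:**
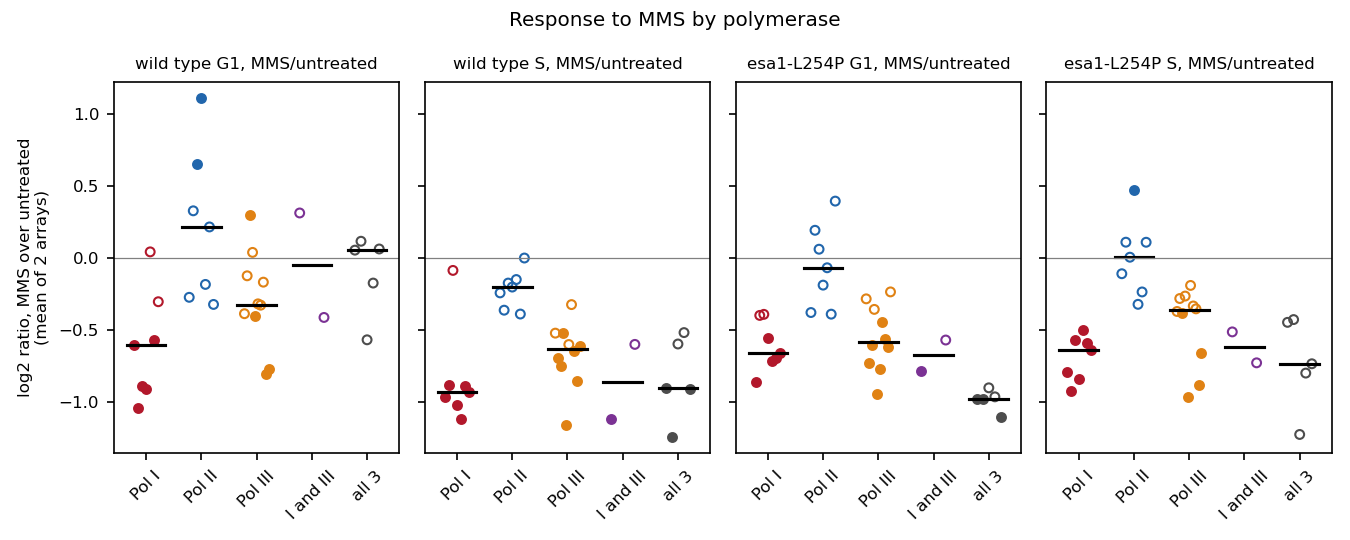
Log2 ratio of MMS over untreated for each subunit gene (mean of 2 arrays) by polymerase, in each of the 4 MMS comparisons. Filled points passed the test, open points did not, and black lines are group medians. In wild type the Pol I median is the lowest of the 5 groups (-0.61 in G1, -0.93 in S), and the Pol II median lies closest to 0 in each of the S comparisons and in esa1-L254P G1.

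Of the 7 Pol I genes, 5 were below 0 on every MMS array, the catalytic core among them. RPA190 (YOR341W), the largest subunit, gave -0.81 and -1.001 in wild-type G1, -0.75 and -1.29 in wild-type S, -0.56 and -0.54 in esa1-L254P G1 and -0.51 and -1.17 in esa1-L254P S, with replicate 1 first. RPA135 (YPR010C), the second largest, which with RPA190 forms the active centre, gave -0.93 and -1.15 in wild-type G1, -0.68 and -1.08 in wild-type S, -0.48 and -0.31 in esa1-L254P G1 and -0.43 and -1.41 in esa1-L254P S. Both genes were below 0 on all 8 arrays, at mean responses of -0.83 ± 0.08 (SE, adjusted p = 2.44e-05) and -0.81 ± 0.13 (adjusted p = 0.000453, limma), and the decrease of RPA135 passed in each MMS comparison except esa1-L254P G1 (-0.40, adjusted p = 0.289). RPA12 (YJR063W), the zinc ribbon subunit that acts in RNA cleavage, gave -0.46 and -0.76 in wild-type G1, -0.74 and -1.18 in wild-type S, -0.65 and -1.07 in esa1-L254P G1 and -0.37 and -1.22 in esa1-L254P S. It passed in all 4 MMS comparisons and in the mean (-0.81 ± 0.10), although its 2 spots differed by up to 1.11 on 1 array, the widest gap among the subunit genes.

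The stalk of Pol I is a pair, and its partners differed. RPA43 (YOR340C), which binds the initiation factor Rrn3, gave -0.73 and -0.41 in wild-type G1, -0.93 and -0.84 in wild-type S, -0.81 and -0.58 in esa1-L254P G1 and -0.54 and -0.64 in esa1-L254P S. RPA14 (YDR156W), its smaller partner, gave -0.69 and -1.09 in wild-type G1, 0.09 and -0.26 in wild-type S, -0.44 and -0.34 in esa1-L254P G1 and -0.42 and -0.71 in esa1-L254P S. RPA43 was below 0 on all 8 arrays and passed in all 4 comparisons (mean -0.68 ± 0.05, adjusted p = 3.03e-06), while RPA14 had its lowest mean in wild-type G1, passed there and in esa1-L254P S, and was near 0 in wild-type S (-0.08, adjusted p = 0.73). RPA43 and RPA190 are neighbours on chromosome XV.

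The remaining Pol I genes encode the RPA49 and RPA34 pair, which resembles parts of the Pol II factors TFIIF and TFIIE and aids initiation and elongation. RPA49 (YNL248C) gave -0.12 and -0.48 in wild-type G1, -0.74 and -1.12 in wild-type S, -0.62 and -0.70 in esa1-L254P G1 and -0.32 and -0.95 in esa1-L254P S. RPA34 (YJL148W) gave -0.05 and 0.13 in wild-type G1, -0.98 and -1.26 in wild-type S, -0.52 and -0.91 in esa1-L254P G1 and -0.45 and -0.55 in esa1-L254P S. Both were lower in wild-type S and in both esa1-L254P comparisons, and in wild-type G1 neither passed, RPA49 at -0.30 (adjusted p = 0.251) and RPA34 at 0.04 (adjusted p = 0.855). Over the mean they fell by 0.63 and 0.57 on the log2 scale.

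The 10 Pol III genes fell in the mean by 0.27 to 0.87 on the log2 scale. RPC82 (YPR190C), RPC34 (YNR003C) and RPC31 (YNL151C) encode a trimer that acts in promoter opening. RPC82 gave -0.89 and -0.71 in wild-type G1, -0.86 and -0.85 in wild-type S, -0.61 and -0.61 in esa1-L254P G1 and -0.75 and -1.02 in esa1-L254P S. RPC31 gave -0.43 and -0.38 in wild-type G1, -1.07 and -1.25 in wild-type S, -0.72 and -1.17 in esa1-L254P G1 and -0.87 and -1.05 in esa1-L254P S. RPC34 gave -0.47 and -0.16 in wild-type G1, -0.72 and -0.48 in wild-type S, -0.81 and -0.72 in esa1-L254P G1 and -0.58 and 0.20 in esa1-L254P S. RPC82 and RPC31 were below 0 on all 8 arrays, passed in all 4 comparisons and had mean responses of -0.79 ± 0.04 (adjusted p = 4.65e-07) and -0.87 ± 0.06 (adjusted p = 2.39e-06, limma), whereas RPC34 was above 0 on 1 array and passed singly in esa1-L254P G1 alone, and with the dye term in both wild-type comparisons too.

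The large catalytic subunits of Pol III are RPO31 (YOR116C) and RET1 (YOR207C). RPO31 gave -0.86 and -0.68 in wild-type G1, -0.59 and -0.62 in wild-type S, -0.36 and -0.11 in esa1-L254P G1 and -0.40 and -0.91 in esa1-L254P S. RET1 gave -0.50 and -0.27 in wild-type G1, -0.55 and -0.49 in wild-type S, -0.57 and 0.01 in esa1-L254P G1 and -0.55 and -0.19 in esa1-L254P S. RPO31 passed in wild-type G1, wild-type S and esa1-L254P S, with its smallest decrease in esa1-L254P G1 (-0.23, adjusted p = 0.188). RET1 passed in no single comparison without the dye term and in all 4 with it (adjusted p 0.00508, 0.000887, 0.0253 and 0.0064). The pair RPC53 and RPC37, related to TFIIF, acts in termination and reinitiation. RPC53 (YDL150W) gave -0.29 and -0.04 in wild-type G1, -0.67 and -0.63 in wild-type S, -0.54 and -0.58 in esa1-L254P G1 and -0.49 and -0.22 in esa1-L254P S. RPC37 (YKR025W) gave -0.26 and -0.39 in wild-type G1, -0.17 and -0.47 in wild-type S, -0.42 and -0.46 in esa1-L254P G1 and -0.23 and -0.43 in esa1-L254P S. All 16 values of this pair lay below 0, none below -0.67, and both genes passed in the mean, at -0.43 ± 0.06 and -0.36 ± 0.06.

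For the stalk and cleavage subunits of Pol III the wild-type G1 arrays gave the highest values. RPC17 (YJL011C), the smaller stalk subunit, gave 0.41 and 0.20 in wild-type G1, -0.69 and -0.80 in wild-type S, -0.46 and -0.74 in esa1-L254P G1 and -0.29 and -0.48 in esa1-L254P S. RPC25 (YKL144C), its partner, gave 0.08 and 0.00 in wild-type G1, -0.29 and -0.75 in wild-type S, -0.11 and -0.60 in esa1-L254P G1 and -0.11 and -0.41 in esa1-L254P S. RPC11 (YDR045C), needed for RNA cleavage and termination, gave -0.24 and -0.01 in wild-type G1, -0.74 and -0.65 in wild-type S, -0.49 and -0.96 in esa1-L254P G1 and -0.26 and -0.30 in esa1-L254P S. RPC17 rose in wild-type G1 (0.30 ± 0.10, adjusted p = 0.0348) and fell in the other 3 MMS comparisons, and RPC25 and RPC11 were near 0 in wild-type G1 (0.04 and -0.12) and lower in wild-type S (-0.52 and -0.69). RPC11 also fell in esa1-L254P G1 (-0.73 ± 0.19, adjusted p = 0.0161).

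The shared and common subunits sit in the assembly platform and the base of the enzymes, and their genes had the largest gaps between the 2 arrays of an MMS comparison. RPC40 (YPR110C) and RPC19 (YNL113W) form the alpha-like pair of Pol I and Pol III. RPC40 gave -0.42 and -0.40 in wild-type G1, -0.44 and -0.75 in wild-type S, -0.22 and -0.92 in esa1-L254P G1 and -0.16 and -1.29 in esa1-L254P S. RPC19 gave 0.69 and -0.07 in wild-type G1, -0.85 and -1.39 in wild-type S, -0.46 and -1.10 in esa1-L254P G1 and -0.45 and -0.58 in esa1-L254P S. RPC40 was below 0 on all 8 arrays and passed in the mean (-0.58 ± 0.15, adjusted p = 0.0087), in no single MMS comparison without the dye term, and with it in wild-type S (adjusted p = 0.0236), esa1-L254P G1 (0.0336) and esa1-L254P S (0.01); RPC19 had one value of each sign in wild-type G1 and fell in wild-type S (-1.12 ± 0.20) and esa1-L254P G1 (-0.78 ± 0.20).

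Of the genes common to all 3 enzymes, RPB5 (YBR154C) gave 0.02 and 0.21 in wild-type G1, -1.20 and -1.28 in wild-type S, -0.53 and -1.42 in esa1-L254P G1 and -0.36 and -0.49 in esa1-L254P S. RPO26 (YPR187W) gave -0.02 and 0.15 in wild-type G1, -0.95 and -0.87 in wild-type S, -0.62 and -1.58 in esa1-L254P G1 and -0.33 and -1.14 in esa1-L254P S. RPB10 (YOR210W) gave 0.03 and 0.08 in wild-type G1, -0.83 and -0.97 in wild-type S, -0.41 and -1.55 in esa1-L254P G1 and -0.05 and -0.84 in esa1-L254P S. These 3 genes had no call in wild-type G1, where all lay between 0.06 and 0.12, and each fell in wild-type S, by 0.90 to 1.24, and in esa1-L254P G1, by 0.98 to 1.10. RPB8 (YOR224C) gave -0.53 and -0.60 in wild-type G1, -0.46 and -0.73 in wild-type S, -0.16 and -1.64 in esa1-L254P G1 and -0.24 and -2.21 in esa1-L254P S. RPC10 (YHR143W-A) gave -0.20 and -0.15 in wild-type G1, -0.47 and -0.56 in wild-type S, -0.33 and -1.60 in esa1-L254P G1 and -0.02 and -1.57 in esa1-L254P S. RPB8 and RPC10 were below 0 on all 8 arrays, but in esa1-L254P replicate 2 was far lower than replicate 1, by 1.96 for RPB8 and 1.55 for RPC10 in S, and neither passed in any single comparison. With the dye term both passed in esa1-L254P G1 (adjusted p = 0.0252 and 0.00945) and S (adjusted p = 0.00525 and 0.0202). Over the 5 common genes replicate 2 minus replicate 1 had a median of -1.15 in esa1-L254P G1 and -0.82 in esa1-L254P S, against 0.06 and -0.09 in wild type, and the fitted dye effect (Cy5 over Cy3, over all arrays) was 0.55 for RPB8 and 0.34 for RPC10. The part of the dye in these decreases was not tested beyond the fit with a dye term.

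Of the 7 Pol II genes 2 passed in the mean, in opposite directions. RPB4 (YJL140W), the dissociable stalk subunit, gave 1.31 and 0.91 in wild-type G1, -0.06 and -0.34 in wild-type S, -0.15 and -0.22 in esa1-L254P G1 and 0.53 and 0.42 in esa1-L254P S. RPB11 (YOL005C), of the alpha-like pair, gave -0.24 and -0.30 in wild-type G1, -0.22 and -0.27 in wild-type S, -0.38 and -0.37 in esa1-L254P G1 and 0.00 and -0.22 in esa1-L254P S. RPB4 rose in wild-type G1 (1.11 ± 0.13, adjusted p = 0.000216) and esa1-L254P S (0.47 ± 0.13, adjusted p = 0.0216), lay below 0 on the other 4 arrays, and its 2 spots differed by up to 1.00. RPB11 passed in the mean (-0.25 ± 0.06, adjusted p = 0.00787), the smallest change among the called genes, and in no single MMS comparison, though with the dye term it fell in esa1-L254P G1 (adjusted p = 0.0203).

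The other 5 Pol II genes did not pass in the mean. For RPB3 (YIL021W), partner of RPB11, the wild-type G1 arrays gave 0.79 and 0.52, a rise (0.65 ± 0.14, adjusted p = 0.00556), and the other 6 lay between -0.22 and 0.21. RPO21 (YDL140C), the largest subunit with the C-terminal repeat domain, ranged from -0.56 to 0.58 over the 8 arrays (median 0.07). RPB2 (YOR151C), the second largest, ranged from -0.45 to 0.41. Values of these large subunits thus lay on both sides of 0. RPB7 (YDR404C), the stalk partner of RPB4, ranged from -0.74 to 0.16. RPB9 (YGL070C), the zinc ribbon subunit, ranged from -0.68 to 0.51. RPB9 was below 0 on 7 of the 8 arrays, RPB7 on 6, RPO21 on 4 and RPB2 on 2. None of these 4 passed in a single MMS comparison. In wild-type S 6 of the 7 Pol II genes were below 0 on both arrays (median -0.20, against -0.03 over all genes). That number was 3 in wild-type G1, 3 in esa1-L254P G1 and 1 in esa1-L254P S. The share over all genes was not counted. With the dye term RPB2 passed as higher in wild-type G1 (adjusted p = 0.0214) and as lower in wild-type S (adjusted p = 0.0135), and RPO21 fell in wild-type G1 (adjusted p = 0.0337) and rose in esa1-L254P G1 (adjusted p = 0.0151).

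Related subunits were then set side by side on each MMS array, since they hold the same place in different enzymes. For the largest subunit, RPA190 was below RPO21 on all 8 arrays (difference -1.14 to -0.45, median -0.92), and RPO31 likewise (-0.94 to -0.12, median -0.69). For the second largest, RPA135 was below RPB2 on 8 of 8 (-1.46 to -0.41, median -0.68) and RET1 on 8 of 8 (-0.91 to -0.04, median -0.40). Within the alpha-like pair, RPC40 was below RPB3 on 8 of 8 arrays (-1.37 to -0.10, median -0.73), and RPC19 was below RPB11 on 6 of 8 (-1.13 to 0.94, median -0.40). In the stalk, RPC17 was below RPB4 on all 8 arrays, RPA43 below RPB7 on 7, RPA14 below RPB4 on 6 and RPC25 below RPB7 on 5. At the zinc ribbon position RPA12 was below RPB9 on 8 of 8 (-0.96 to -0.27, median -0.64) and RPC11 on 5 of 8 (-0.75 to 0.07, median -0.15). The difference between enzymes was therefore present on every array at the catalytic positions and not at every alpha-like, stalk or zinc ribbon position. These are counts of arrays, not tests.

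**Figure D3:**
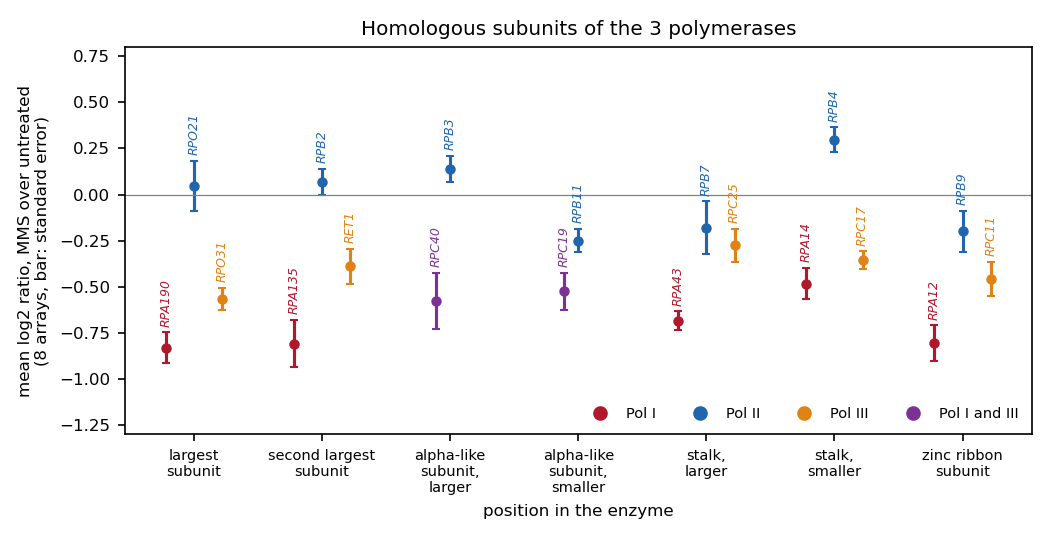
Mean log2 ratio of MMS over untreated over 8 arrays (points, bars are standard errors) for subunits that hold the same place in Pol I, Pol II and Pol III. The Pol II gene lies highest at each of the 7 positions, for example RPO21 at 0.05 beside RPA190 at -0.83 and RPO31 at -0.57.

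Taken one comparison at a time, the number of genes called varied. In wild-type G1, 11 of 31 passed, 8 lower and 3 higher, a share (35.5%) near the 36.4% of all genes; lower calls made up 25.8% against 16.9%, and higher calls 9.68% against 19.5%. Of the 8 decreases 5 were Pol I genes and 3 Pol III genes, and the rises were RPB3, RPB4 and RPC17. Omitting replicate 1 reduced the count to 5 and omitting replicate 2 to 6; RPA190, RPO31, RPC82 and RPB4 passed both times. With arrays scaled to one spread 6 passed. In wild-type S, 17 passed, all lower (54.8%, against 20.7% of all genes lower and 38.9% in all): 6 of 7 Pol I genes, 7 of 10 Pol III genes, RPC19, RPB5, RPO26 and RPB10, and no gene specific to Pol II. Without replicate 2 this count was 7, and without replicate 1 it was 12. The steepest decreases there were RPB5 (-1.24 ± 0.25), RPC31 (-1.16 ± 0.12), RPC19 (-1.12 ± 0.20) and RPA34 (-1.12 ± 0.15).

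In esa1-L254P G1, 16 passed, all lower (51.6%, against 14.6% of all genes lower and 28.1% in all): 5 Pol I genes, 7 Pol III genes, RPC19, RPB5, RPO26 and RPB10. Without replicate 2 the 3 calls left were RPA43, RPC82 and RPC31, and without replicate 1 there were 11. In esa1-L254P S, 11 passed as lower (35.5%, against 17.0%) and RPB4 as higher (3.23%, against 16.3%), with 33.2% of all genes called: all 7 Pol I genes and RPO31, RPC82, RPC31 and RPC17 of Pol III. Without replicate 2 the calls were 3, RPA43, RPC82 and RPC31; with the dye term they were 20, and with arrays scaled to one spread 7. Each of RPA190, RPA43, RPA12, RPC82 and RPC31 fell in all 4 MMS comparisons, RPA135, RPA49, RPA34, RPO31 and RPC17 fell in 3, and 11 genes fell in none. Those 11 were all 7 Pol II genes and RET1, RPC40, RPB8 and RPC10. With the dye term the tally differed: RET1 and RPC37 also fell in all 4 comparisons, RPC40 fell in 3, RPB8 and RPC10 in 2, and RPO21, RPB2 and RPB11 in 1, so that 4 genes (RPB3, RPB4, RPB7 and RPB9) fell in none. That fit called 1124 (wild-type G1), 1316 (wild-type S), 1119 (esa1-L254P G1) and 1235 (esa1-L254P S) of all 4073 genes as lower. In esa1-L254P S it called 2265 in either direction. How many of all genes fell in 4, 3 or none of the comparisons was not counted, so neither tally has a share beside it.

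Whether the MMS response differed between phases was tested as a difference of responses. In wild type, 9 of 31 genes differed (29.0%, near the 32.2% of all genes). The response in S was lower than in G1 for 8 genes (25.8%, against 18.2%): RPC19 (-1.43 ± 0.28), RPB5 (-1.36 ± 0.35), RPB4 (-1.31 ± 0.19), RPA34 (-1.16 ± 0.21), RPC17 (-1.05 ± 0.14), RPB3 (-0.83 ± 0.20), RPC31 (-0.76 ± 0.17) and RPB2 (-0.69 ± 0.20). It was higher for RPA14 (0.80 ± 0.24, adjusted p = 0.0282), a direction found in 14.0% of all genes. The smallest adjusted p values were 0.000366, for RPC17, and 0.000604, for RPB4; both genes rose in G1 and did not rise in S. With 1 array left out 6 genes passed, or 5 without wild-type S replicate 2. The calls of RPB2 and RPB5 were lost in all 4 omissions, those of RPB3 and RPA14 in 2 and that of RPC31 in 1 (wild-type S replicate 2), with adjusted p up to 0.14, 0.0784, 0.0831, 0.173 and 0.0604. With the dye term 14 of the 31 differed, where 2101 of all 4073 genes did. With arrays scaled to one spread 5 differed, where 744 of all genes did. In esa1-L254P none of the 31 passed in limma, against 10.3% of all genes, and 3 had an unadjusted p under 0.05. With the dye term in limma 2 passed (RPB4 at 0.66, adjusted p = 0.0132, and RPC34 at 0.58, adjusted p = 0.0299), where 1127 of all 4073 genes did.

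Genes of mitosis moved in the S comparisons as well. Of 18 measured genes of the mitotic CLB2 cluster, which peaks after S phase, 17 fell with MMS in each S comparison, with medians of -1.67 in wild type and -1.52 in esa1-L254P, while in G1 the medians were 0.24 and -0.05. Their part in the S values of the subunit genes was not tested. In wild-type G1 the CLB2 cluster had 6 genes up and 1 down. Of all genes, 19.5% were called higher and 16.9% lower in wild-type G1. In S, 20.7% of all genes were lower in wild type and 17.0% in esa1-L254P.

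The next comparisons set esa1-L254P against wild type. Without MMS few subunit genes differed. In untreated G1 cells 4 of 31 were higher in esa1-L254P (12.9%, against 13.7% of all genes higher and 21.9% called in all) and none was lower. In the fit with the dye term 1779 of all 4073 genes passed, beside 10 of the 31. RPB4 gave 1.17 and 0.78 on its arrays and a mean of 0.97 ± 0.13 (adjusted p = 0.000979). RPA34 gave 0.39 and 0.82, RPC17 gave 0.41 and 0.47 and RPC31 gave 0.57 and 0.25, with means of 0.61 ± 0.15, 0.44 ± 0.10 and 0.41 ± 0.12. Without replicate 1, RPB4 and RPA34 passed, and without replicate 2, RPB4 alone; with the dye term 10 genes passed, among them RPO21 and RPO31 as lower.

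In untreated S cells 4 of 31 differed, 3 lower (9.68%, against 12.2% of all genes) and 1 higher (3.23%, against 9.40%; 21.6% in all), and for 3 of the same genes the sign was opposite to that in G1. RPB4 gave -0.67 and -0.62 (-0.64 ± 0.13), RPC17 gave -0.63 and -0.67 (-0.65 ± 0.10) and RPA34 gave -0.76 and -0.24 (-0.50 ± 0.15), all lower in esa1-L254P. RPA14 gave 0.96 and 0.36 and was higher (0.66 ± 0.17, adjusted p = 0.0207). Without replicate 1 RPC17 alone passed, without replicate 2 RPA34, RPA14 and RPC17 did, and with the dye term 9 genes passed, and with the first spot alone 1. Of all 4073 genes, 1621 passed in untreated S with the dye term and 633 with the first spot alone. The difference between the untreated G1 and untreated S strain comparisons was not tested.

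With MMS, 1 subunit gene differed between the strains in G1 and none in S. In G1, RPC17 alone passed, at -0.99 and -0.69 on its arrays and -0.84 ± 0.10 in the mean, lower in esa1-L254P (10.4% of all genes were called, 4.98% as lower). With the dye term 5 passed, where 1193 of all 4073 genes did, and with arrays scaled to one spread 2, where 515 did. In S none of the 31 passed in limma, with or without the dye term, and 1 had an unadjusted p under 0.05 (RPA190, 0.39). Of all 4073 genes, 3 passed without the dye term (0.0737%) and 97 with it. These are the comparisons in which the dye effect exceeded the strain difference. Averaged over all 4 strain comparisons, RPC17 was the single subunit gene that differed (-0.28 ± 0.05, adjusted p = 0.00895, with 5.82% of all genes called, 2.65% as lower), and from the 2 untreated comparisons alone none did, with 1 at an unadjusted p under 0.05.

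A different question is whether the strains differed in how the subunit genes responded to MMS. In G1 this difference, estimated from all 8 G1 arrays, passed for 14 of 31 genes (45.2%, near the 41.8% of all genes), with 12 lower in esa1-L254P (38.7%, against 21.6%) and 2 higher (6.45%, against 20.3%). Of the 12 genes with a more negative response in esa1-L254P, 3 encode stalk subunits, 2 alpha-like subunits and 3 common subunits. The other stalk genes RPA14 (0.46), RPB7 (0.09) and RPA43 (-0.15) did not pass. Nor did the other alpha-like genes RPC40 (-0.28) and RPB11 (-0.11), or the common genes RPB8 and RPC10. RPB4 differed by -1.36 ± 0.13 (adjusted p = 4.93e-05), RPC17 by -1.09 ± 0.10 (adjusted p = 2.75e-05) and RPC19 by -0.95 ± 0.20. Of the common genes RPB5, RPO26 and RPB10 differed, by -1.05, -1.14 and -1.16, and the median of the 5 was -1.05. RPA34 (-0.87), RPC11 (-0.69), RPC31 (-0.60), RPB3 (-0.60), RPC25 (-0.57) and RPC53 (-0.41) completed the group. The responses of the largest subunits RPO21 (0.89 ± 0.27) and RPO31 (0.52 ± 0.12) were more positive in esa1-L254P. With 1 array left out 11 to 14 genes passed; the calls of RPC53 (lost in 6 of 8 omissions), RPO21 (4), RPC25 (6) and RPC11 (2) depended on single arrays, all 4 on untreated G1 replicate 2, with adjusted p up to 0.0891, 0.0854, 0.0963 and 0.054. From the 2 MMS comparisons alone, without the strain arrays, 987 of all 4073 genes passed, 547 lower and 440 higher. With the dye term 1885 of all genes passed there, and with arrays scaled to one spread 542. Of the 31 subunit genes 7 passed (22.6%): RPA34, RPB4, RPC31, RPC17, RPC19 and RPB5 as lower and RPO31 as higher. This count was 13 with the dye term, 3 with arrays scaled to one spread, and with 1 array left out 2 (wild-type G1 replicate 1 or esa1-L254P G1 replicate 2), 3 (wild-type G1 replicate 2) or 8 (esa1-L254P G1 replicate 1).

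**Figure D4:**
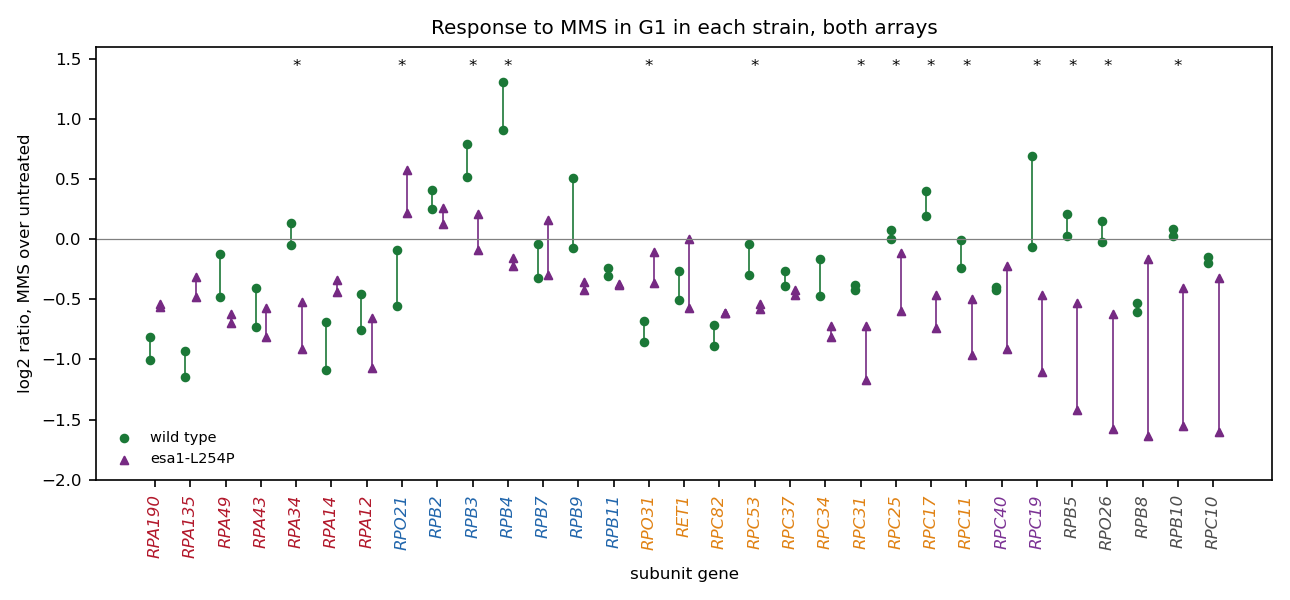
Log2 ratio of MMS over untreated in G1 for each subunit gene, with both arrays of wild type (circles) and of esa1-L254P (triangles) joined by a line. Asterisks mark the 14 genes whose response differed between strains. For RPB4 the wild-type arrays (1.31 and 0.91) lie above the esa1-L254P arrays (-0.15 and -0.22), and the 2 esa1-L254P arrays of the common genes lie far apart.

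In S the difference passed for 5 genes, all with a less negative or more positive response in esa1-L254P (16.1%, against 13.6% of all genes higher and 22.6% called in all). They were RPB5 (0.81 ± 0.25), RPB4 (0.75 ± 0.13), RPC19 (0.69 ± 0.20), RPA34 (0.56 ± 0.15) and RPC17 (0.47 ± 0.10), each of which had the opposite sign in G1. With 1 array left out 2 to 5 passed (2 without wild-type S replicate 2, esa1-L254P S replicate 1, untreated S replicate 1 or MMS S replicate 2, and 3 without esa1-L254P S replicate 2), and RPB4 and RPC17 passed in all 8 omissions, while with the dye term 8 passed; adjusted p reached 0.127 for RPB5, 0.127 for RPC19 and 0.0852 for RPA34. From the MMS comparisons alone none passed in limma, where 219 of all 4073 genes did, and 5 had an unadjusted p under 0.05. With the dye term 2 passed there, where 989 of all genes did. In the difference estimated from all S arrays, 1817 of all genes passed with the dye term, beside the 8 subunit genes.

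Gene length moved with the strain difference in G1. Over the 31 subunit genes Spearman's rho between gene length and the difference of responses was 0.59, and over 4065 genes with a length in the R64 gene table it was 0.33. The 15 subunit genes shorter than 700 bases had a median of -0.69, and the 16 longer ones -0.11; over all genes the medians were -0.42 for 709 shorter and 0.10 for 3356 longer genes. RPO21 and RPO31, the genes with a more positive response, are 5202 and 4383 bases long, while RPB4 and RPC17 are 666 and 486. In the untreated G1 strain comparison rho was -0.51 over the subunit genes and -0.26 over all. The other strain comparisons gave 0.62 and 0.27 (MMS G1), 0.46 and 0.10 (untreated S) and 0.39 and 0.23 (MMS S). The MMS response gave -0.34 and -0.14 in wild-type G1, 0.46 and 0.26 in esa1-L254P G1, -0.01 and -0.06 in wild-type S and -0.03 and -0.005 in esa1-L254P S. For the phase difference in esa1-L254P rho was -0.55 and -0.34, and for the strain difference in S -0.18 and 0.05. For the mean MMS response it was -0.04 and 0.01. Genes on one array share its RNA and its dyes, so these are descriptions, and the part of length in the strain difference was not tested.

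**Figure D5:**
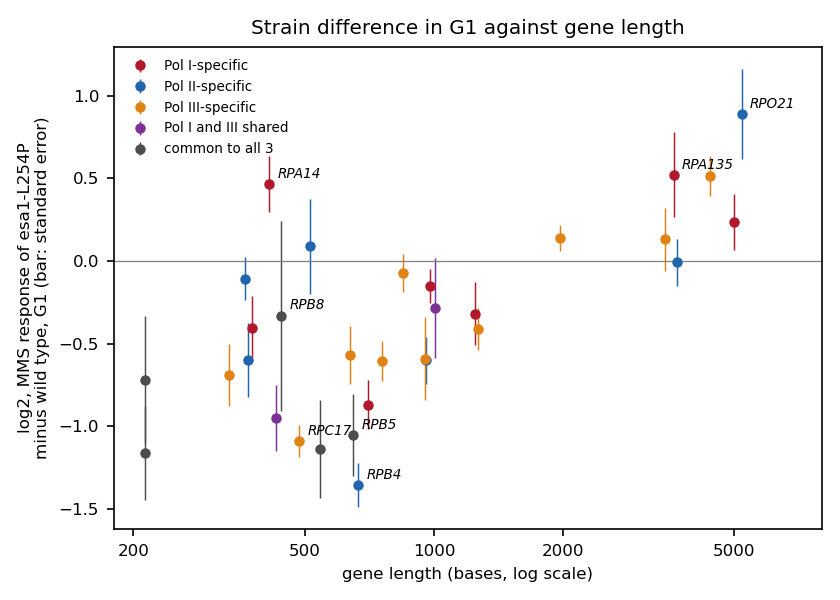
Difference between strains of the MMS response in G1 (log2, esa1-L254P minus wild type, bars are standard errors) against gene length in bases on a log axis, for the 31 subunit genes coloured by polymerase. RPO21, at 5202 bases, lies highest (0.89) and RPB4, at 666 bases, lowest (-1.36).

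The factors that work with each enzyme did not all follow its subunits. Of 9 genes for Pol I initiation (Rrn3, core factor and upstream factor subunits, and Hmo1), 1 rose and 7 fell in the mean MMS response (median -0.26). In wild-type G1 4 rose and 3 fell (median -0.02), and in wild-type S 0 rose and 6 fell. In esa1-L254P 1 rose and 4 fell in G1, and 0 rose and 5 fell in S. All 9 genes for TFIIIB, TFIIIC and the Pol III repressor Maf1 were measured. In the mean MMS response 5 rose and none fell (median 0.25). In wild-type G1 7 rose, so that within Pol III the subunit median was -0.32 and the factor median 0.38. In wild-type S 1 factor gene rose and 1 fell (median -0.12). In esa1-L254P 2 rose and none fell in G1 (median 0.18), and 4 rose and 1 fell in S (median 0.31). In the mean the general factors of Pol II had 5 up and 4 down of 18 measured (median 0.07). Its elongation factors had 7 up and 1 down of 15 measured (median 0.23). The general factors had 5 up and 0 down in wild-type G1, 1 and 5 in wild-type S, 1 and 1 in esa1-L254P G1 and 3 and 2 in esa1-L254P S. For the elongation factors these were 8 and 0 (median 0.36), 1 and 7 (median -0.28), 1 and 1 (median 0.15) and 3 and 0 (median 0.24). Of 8 genes for polymerase assembly and nuclear import 2 were measured, 1 of which rose and 1 fell in the mean. Among 50 genes of ribosomal RNA processing and ribosome assembly none rose and 49 fell (median -0.69), close to the -0.68 of the Pol I subunits; in wild-type G1 they had 1 up and 23 down, in wild-type S 0 up and 46 down, in esa1-L254P G1 0 up and 39 down and in esa1-L254P S 0 up and 44 down. Of all genes, 28.0% were called higher and 27.3% lower in the mean, 19.5% higher and 16.9% lower in wild-type G1, 20.7% lower in wild-type S, 14.6% lower in esa1-L254P G1 and 17.0% lower in esa1-L254P S. Higher calls numbered 741 of 4073 in wild-type S, 552 in esa1-L254P G1 and 662 in esa1-L254P S.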

How the data were processed

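Each array's log2 ratios were used as deposited by the authors in the value table; base 2 and Cy5 over Cy3 were assumed, since neither is stated. The submitters' processing notes name R 3.1.1 and limma 3.0; how background was corrected and dyes normalized is not given in the sources used here. Array medians ran from -0.0058 to 0.0048, so each array was taken as centred, and none was rescaled.

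Rows did not follow the probe numbers, by which the 2 spots of a gene had correlations of -0.0302 to 0.0257. Of 11328 row orders scored on 2035 genes for agreement of duplicates (mean product of standardized values), the best scored 1.25 and the next 0.0338; in 2035 other genes duplicates then correlated at 0.677 to 0.948. Every gene name rests on that order. Of 15744 spots, 8152 carried a single symbol and 7592 none; 125 symbols were updated through the R64 gene table and 8 kept. Spots were averaged per gene.

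R 4.3.3 and limma 3.58.1 fitted 1 coefficient per comparison to all 16 arrays, with 8 residual degrees of freedom; the code was tested on simulated data. Adjusted p-values follow Benjamini-Hochberg over 4073 genes within each comparison or contrast. The strain difference of the response averaged both ways to form it. The median standard error was 0.15; 2 arrays per comparison limit the precision. Same-numbered arrays deviated together (correlations 0.619 to 0.892 over 28 pairs of comparisons), the number being the dye orientation, so an alternative fit took it as a dye term. Other alternatives left out single arrays, genes with discordant spots, or used other scalings.

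All 31 subunit genes are named; every MMS array is given for those that passed in the mean MMS response or in at least 3 comparisons. Members and lists (subunit groups, initiation, general and elongation factors, assembly, ribosomal RNA processing, CLB2 cluster) were chosen with earlier results of these data known.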

Additional observations from a re-analysis of the deposited data

Results flagged for a closer look

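A test of the difference itself, in limma over all genes, called 28 differences between groups in how subunit genes responded to MMS. Between phases in wild type (S minus G1) they were, on the log2 scale, RPA34 -1.16, RPA14 0.80, RPB2 -0.69, RPB3 -0.83, RPB4 -1.31, RPC31 -0.76, RPC17 -1.05, RPC19 -1.43, RPB5 -1.36. Between strains in G1 (esa1-L254P minus wild type) they were RPA34 -0.87, RPO21 0.89, RPB3 -0.60, RPB4 -1.36, RPO31 0.52, RPC53 -0.41, RPC31 -0.60, RPC25 -0.57, RPC17 -1.09, RPC11 -0.69, RPC19 -0.95, RPB5 -1.05, RPO26 -1.14, RPB10 -1.16. Between strains in S they were RPA34 0.56, RPB4 0.75, RPC17 0.47, RPC19 0.69, RPB5 0.81. These 3 sets held 29.0%, 45.2% and 16.1% of the subunit genes, where 32.2%, 41.8% and 22.6% of all genes were called. RPA34, RPB4, RPC17, RPC19 and RPB5 appear in all 3 sets, with a negative sign between phases and between strains in G1 and a positive sign between strains in S; these contrasts share arrays, so the signs are not independent. Replicates in these groups number 2, too few for a check of single outlying arrays.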

How the results depend on the processing

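The median of Pol I lay below that of Pol II, and so did that of Pol III, in all 36 combinations of MMS comparison and setting. Pol I lay below Pol III in 34, the exceptions being esa1-L254P G1 without replicate 1 and esa1-L254P S without replicate 2. The dye term and robust eBayes leave these medians unchanged, and centring shifts all genes of a comparison alike. Those combinations therefore could not alter the order. Where genes with discordant spots were left out, RPB9 was the only Pol II gene that remained. No call changed direction. Counts of subunit genes called that moved by over 1.5 times are given here. With the replicate block, the dye term that pairs same-numbered arrays, the counts were 20 in esa1-L254P S (from 12), 10 in untreated G1 (from 4), 9 in untreated S (from 4), 5 in MMS G1 (from 1), 14 in the phase difference in wild type (from 9), 2 in the phase difference in esa1-L254P (from 0), 8 in the strain difference in S (from 5) and 2 in the mean strain difference (from 1). No value lost its call and 56 gained one over these 14 comparisons and contrasts. Calls over all 4073 genes also increased, in the same order to 2265 (from 1354), 1779 (from 894), 1621 (from 880), 1193 (from 422), 2101 (from 1313), 1127 (from 418), 1817 (from 919) and 825 (from 237). With 1 array left out, the lone array being assumed to vary like the others and its dye effect left uncancelled, the counts ranged over 5 to 6 in wild-type G1, 7 to 12 in wild-type S, 3 to 11 in esa1-L254P G1, 3 to 11 in esa1-L254P S, 1 to 2 in untreated G1, 1 to 3 in untreated S, 5 to 6 in the phase difference in wild type, 0 to 1 in the phase difference in esa1-L254P, 11 to 14 in the strain difference in G1, 2 to 5 in the strain difference in S and 23 to 26 in the mean MMS response, and stayed at 1 in MMS G1, 0 in MMS S and 1 in the mean strain difference. Calls over all genes also decreased whenever an array was left out. Arrays scaled to one spread gave 6 in wild-type G1 (from 11), 7 in esa1-L254P S (from 12), 2 in MMS G1 (from 1) and 5 in the phase difference in wild type (from 9). Over all 4073 genes the calls went, in the same order, to 916 (from 1484), 856 (from 1354), 515 (from 422) and 744 (from 1313). Leaving out genes with spots over 0.5 apart, which by construction leaves 13 of the 31 subunit genes, gave 5 in wild-type G1 (from 11), 9 in wild-type S (from 17), 9 in esa1-L254P G1 (from 16), 2 in untreated G1 (from 4), 3 in the phase difference in wild type (from 9), 7 in the strain difference in G1 (from 14), 3 in the strain difference in S (from 5) and 12 in the mean MMS response (from 26). That filter kept 2443 of all genes, of which 1023, 1106, 804, 713, 1030, 1201, 787 and 1432 passed, in the same order. The first spot alone gave 1 in untreated S (from 4), and 633 over all genes (from 880). Centring each array moved no count this far, and robust eBayes changed no call. Chosen after the values were seen, the MMS comparisons alone gave 7 for the strain difference in G1 (13 with the replicate block, 3 with arrays scaled to one spread, 2 without genes with discordant spots, 2 to 8 with 1 array left out) and 0 for that in S (2 with the replicate block), and the untreated comparisons alone gave 0 for the mean strain difference. In the MMS S strain comparison centring and scaling moved the share of higher calls over all genes from 33.3% of 3 calls to 20.0% of 5 and 41.8% of 146; in no other comparison did it move by over 10 percentage points. The search of promoters for motifs was not run, since no promoter sequence was used here.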

Other observations

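Each set of 4 comparisons within a phase closes a loop: the MMS response of esa1-L254P minus that of wild type should equal the strain difference with MMS minus that without. For the 31 subunit genes the departure from closure ran from -0.38 to 0.34 in G1 and from -0.27 to 0.45 in S. None passed in limma with or without the dye term, and neither did any other of the 4073 genes. None of the 31 had an unadjusted p under 0.05 in either fit. The fitted dye effect (Cy5 over Cy3) was 0.55 for RPB8, 0.34 for RPC10, 0.27 for RPO21 and -0.24 for RPC34.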
